A study of Mus musculus with 39 samples.

Results

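The 38 genes described here encode enzymes and regulators of cholesterol and fatty acid synthesis, and they were measured in the kidney, liver, lung and skin of mice that lack perforin. The list names them by symbol for their place in the pathway, the rule uses no measured value, and all 38 were found in each of the 2 deposited tables, which hold 24537 genes for kidney, liver and lung and 52508 genes for skin. Of them, 17 act in sterol synthesis from acetyl-CoA to cholesterol, 6 are regulators or transport sterols, and 15 act in the synthesis of fatty acids and triglycerides.

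All mice were C57BL/6 with the genotype Prf1-/-, so cytotoxic lymphocytes of every group lacked the pore-forming protein of their granules, and no wild-type mouse was among the libraries. Young mice were 3 months old and untreated. Old mice were 20 months old and had received injections from the age of 18 months, on 2 days a month for 2 months, of either vehicle or ABT-737 at 25 mg/kg. ABT-737 blocks proteins of the BCL-2 family that keep cells from apoptosis. Each tissue had 3 ABT-737-treated and 3 vehicle-treated libraries, both with replicate numbers 3, 4 and 5, and 4 young libraries, or 3 in skin. The old vehicle-treated mice were set against the young ones to describe age, and the ABT-737-treated mice against the vehicle-treated ones to describe the drug. Both comparisons use the same vehicle libraries, so a high or low vehicle library moves them in opposite directions. Age cannot be told apart from the vehicle injections, which the young mice did not receive.

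As background, cells make cholesterol from acetyl-CoA through mevalonate, squalene and lanosterol, and fatty acids from the same acetyl-CoA by carboxylation, chain building, elongation and desaturation. The transcription factor SREBP-2, encoded by Srebf2, drives the sterol genes when membranes are low in sterol, while SREBP-1, encoded by Srebf1, and the sugar-responsive factor encoded by Mlxipl drive the fatty acid genes after feeding. Insig1 and Insig2 encode membrane proteins that hold SREBPs in the endoplasmic reticulum. The liver is a main site of both pathways, and in skin they also serve the sebaceous glands and the barrier lipids of the epidermis.

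The promoters of 4 sterol genes are shown. These genes differed between old and young mice in at least 1 tissue and hold CCAAT boxes, which the factor NF-Y binds beside SREBPs. Sc5d and Lss also met both conditions and are not shown. Each promoter shown is the 250 bases just before the start of the gene in RefSeq on GRCm38.p6, written in the direction of transcription. The capitals mark the letters CCAAT on either strand, which read ATTGG on the other, and the letters TCACNCCAC, a sterol regulatory element core. The windows lie at chr13:119690101-119690350 on the plus strand for Hmgcs1, chr5:4104698-4104947 on the minus strand for Cyp51, chr8:64733579-64733828 on the minus strand for Msmo1 and chrX:72918271-72918520 on the plus strand for Nsdhl. In the first table Hmgcs1 spans chr13:119690351-119708260, Cyp51 chr5:4080674-4104697, Msmo1 chr8:64718145-64733578 and Nsdhl chrX:72918521-72958528.
Hmgcs1: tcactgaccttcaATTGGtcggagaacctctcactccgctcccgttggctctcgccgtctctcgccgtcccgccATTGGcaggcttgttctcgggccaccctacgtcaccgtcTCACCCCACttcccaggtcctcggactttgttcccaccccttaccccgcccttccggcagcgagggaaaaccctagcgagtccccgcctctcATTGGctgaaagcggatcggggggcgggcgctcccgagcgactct
Cyp51: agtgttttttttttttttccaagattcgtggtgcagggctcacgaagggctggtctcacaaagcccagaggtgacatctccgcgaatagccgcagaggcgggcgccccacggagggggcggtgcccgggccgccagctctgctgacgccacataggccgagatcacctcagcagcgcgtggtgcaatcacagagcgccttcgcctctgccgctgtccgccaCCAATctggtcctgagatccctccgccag
Msmo1: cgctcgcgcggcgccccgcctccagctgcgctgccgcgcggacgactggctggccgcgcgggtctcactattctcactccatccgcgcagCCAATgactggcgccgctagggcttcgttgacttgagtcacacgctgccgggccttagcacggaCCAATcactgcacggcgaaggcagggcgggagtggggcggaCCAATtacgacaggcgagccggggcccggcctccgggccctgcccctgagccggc
Nsdhl: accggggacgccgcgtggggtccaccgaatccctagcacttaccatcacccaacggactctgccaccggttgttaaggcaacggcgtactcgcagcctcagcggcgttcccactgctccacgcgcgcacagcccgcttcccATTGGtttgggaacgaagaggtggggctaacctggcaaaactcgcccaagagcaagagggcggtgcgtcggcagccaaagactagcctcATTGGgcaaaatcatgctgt
Hmgcs1 held 3 CCAAT boxes and the sterol core, which began 137 bases before the start, Cyp51 held 1 CCAAT box, Msmo1 3 and Nsdhl 2. In the GENCODE annotation, Msmo1 starts farther upstream, at 64733792, and Cyp51 at 4104746. The boxes marked for Msmo1 and Cyp51 therefore lie inside the GENCODE genes. Of the 38 genes, 31 were matched in RefSeq, with 41 promoter windows. CCAAT on either strand was in 68.3% of the 41 windows and in 82.4% of the 17 windows of sterol synthesis genes, against 33.8% of all 32851 windows. TCACNCCAC was in 4.88% of the windows, those of Hmgcs1 and Mlxipl, against 1.05% of all, and CACGTG, the E-box that the Mlxipl product and clock factors can bind, was in 14.6% against 6.02%. The motifs shared 2 bases in all, in a window of Fasn. These matches are descriptions of the letters only.

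Total counts per library ranged from 223957 to 891116 in liver, against 1046508 to 3842808 in the other 3 tissues, so 3 counts correspond to 3.512 to 13.09 CPM, the usual unit of counts scaled to the size of each library, in liver and to at most 3.161 CPM elsewhere. Liver values of lowly counted genes are therefore the least precise. Genes with enough counts were tested with edgeR's quasi-likelihood test within each tissue, and a gene is called here when its p-value, adjusted by the Benjamini-Hochberg method over all genes tested, is below 0.05. The test covered 36 of the 38 genes in kidney, 33 in liver, 34 in lung and all but 1, or 37, in skin. Idi1, an isomerase of the isoprenoid steps, had too few counts everywhere, and Pnpla3, a lipid droplet protein, was tested in skin alone. Srebf2, Scd2 and the acyltransferase Gpam were not tested in liver, and Fads2 and Gpam were not tested in lung. The tissue labels went with their markers, since summed hepatocyte markers were at least 74000 CPM in every liver library, alveolar and club cell markers at least 30200 CPM in every lung, kidney tubule markers at least 14500 CPM in every kidney and keratinocyte markers at least 11400 CPM in every skin. Levels are given below in CPM after TMM scaling, and fold changes as log2 differences with the standard error of the fit. Counts of called members with a library left out, or by another method, are given without the share of all genes called. Such a count can therefore not be told apart from a fit that calls more or fewer genes in general. Of the 38 genes, 19 overlap another annotated gene at the positions used for kidney, liver and lung, and those used for skin were not examined. Among the 19 are Cyp51 with Akap9, Hmgcs1 with Gm48342, Me1 with Gm38230 and A330041J22Rik, Elovl6 with Gm43072, Acacb with Gm13784, Mlxipl with Gm43500, Srebf1 with Rai1 and Acly with Mir7116. Whether strand was used in counting is not stated, so reads of such pairs may not be separable. In bulk tissue, fewer cells of a type and less RNA per cell cannot be told apart.

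In young mice, the liver had the highest level of 32 of the 38 genes among kidney, liver and lung, which share a table. For 26 of them the 4 liver libraries lay wholly above the next tissue. The same counts, here and below, were not made over all genes of that table. Whether the members differ from other genes in this is therefore not known. Thrsp, a nuclear protein that promotes lipogenesis in response to thyroid hormone, stood at 1970 ± 77.3 CPM in liver (SD, n = 4) and 18.8 ± 2.7 CPM in kidney, the next tissue. Scd1, the desaturase that makes monounsaturated fatty acids, stood at 2580 ± 864 CPM in liver and 182 ± 38.3 CPM in lung, and Sc5d, a sterol desaturase late in cholesterol synthesis, at 616 ± 47.9 CPM in liver against 28.8 ± 3.38 CPM in the next tissue.

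Kidney was highest for 4 genes and clear of the next tissue for 2 of them. Hmgcs1, the cytosolic synthase that makes HMG-CoA, was at 430 ± 36.7 CPM in kidney and 213 ± 35.9 CPM in liver, and Me1, the malic enzyme that supplies NADPH for lipid synthesis, was at 305 ± 25.1 CPM against 140 ± 56 CPM. Lung was highest for 2 genes, and clear of the next tissue for 1, the desaturase gene Scd2, at 166 ± 31.7 CPM against 52.1 ± 8.09 CPM in kidney. For Cyp51 the 204 ± 50.5 CPM in liver and the 170 ± 24.4 CPM in kidney overlapped. These tissue levels are descriptions and were not tested.

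**Figure D1:**
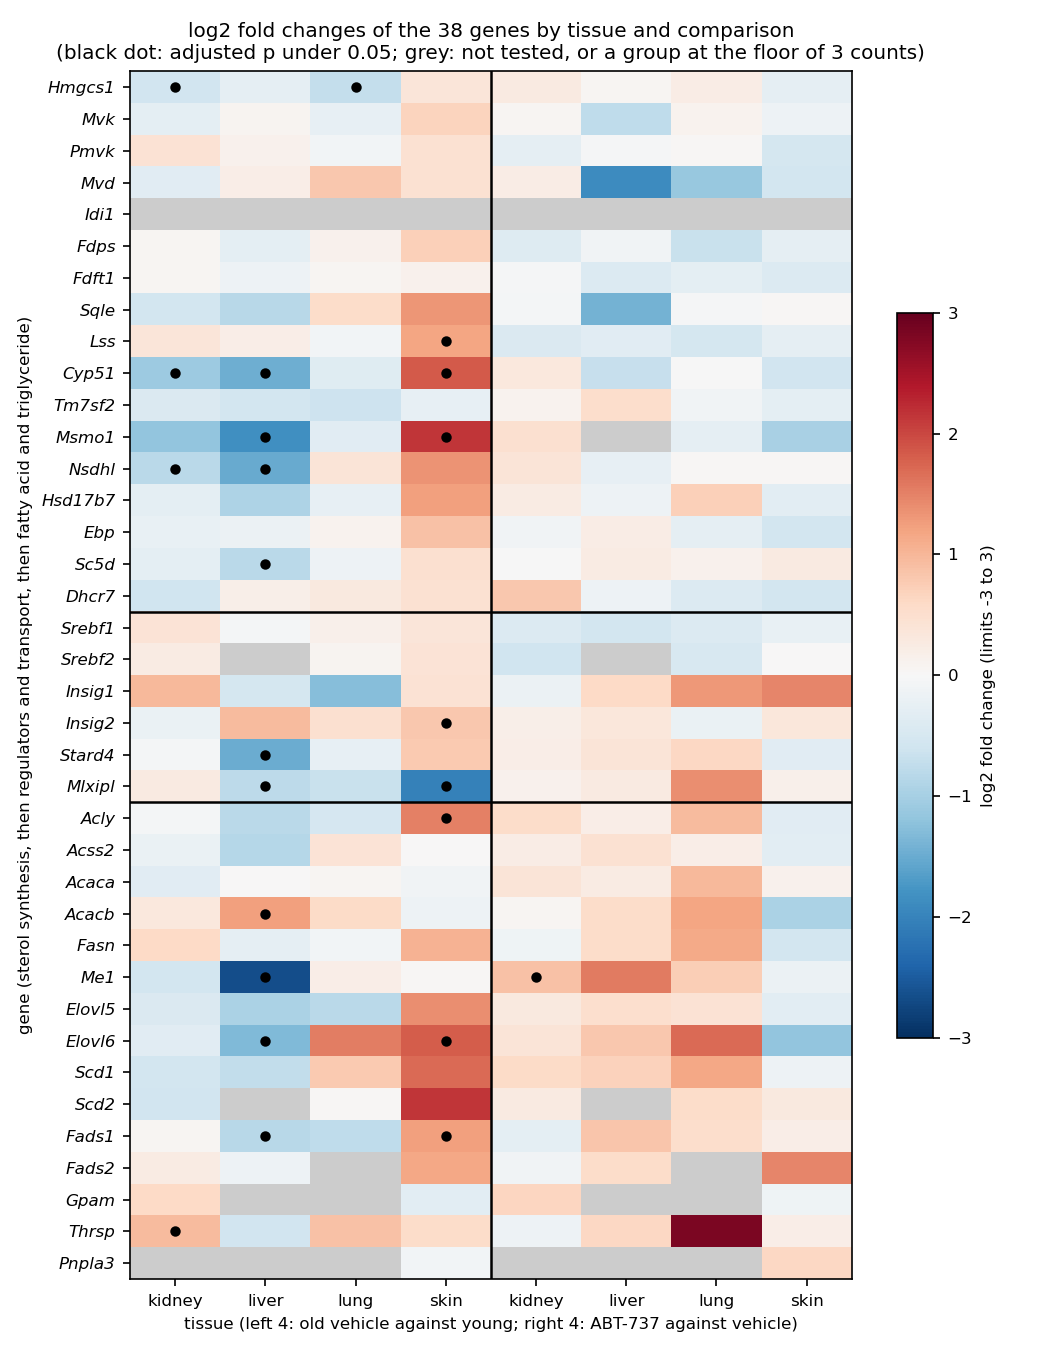
Log2 fold changes of the 38 genes, with tissues on the x axis (left 4 columns, old vehicle against young; right 4 columns, ABT-737 against vehicle) and genes on the y axis by role. Red is higher and blue lower in the first-named group, black dots mark adjusted p under 0.05 and grey marks genes not tested or at the floor of 3 counts; the sterol genes are mostly blue with age in kidney and liver and mostly red in skin, and the drug columns hold 1 dot, Me1 in kidney.

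In the kidney, 3 genes of sterol synthesis were lower in old vehicle-treated mice than in young ones, and Thrsp was higher. Of the 36 genes tested, 1 was called higher, against 7.75% of all genes tested in kidney, and 3 were called lower, against 5.5%, so the members were called about as often as other genes. The 16 sterol synthesis genes tested had a median log2 change of -0.32, with 12 of 16 negative, beside a median of 0.0062 over all genes. The 14 fatty acid genes had a median of -0.14 with 8 negative, and the 6 regulators a median of 0.26 with 4 positive.

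Cyp51 encodes the lanosterol demethylase, the first enzyme to act on the sterol ring after it closes. Its levels were 154, 213, 202 and 190 CPM in the young kidneys, 99.7, 78.7 and 85.5 CPM with vehicle and 96.1, 115 and 117 CPM with ABT-737. Every old library lay below every young one, and the change from young to vehicle was -1.10 ± 0.155 (adjusted p = 0.000188, edgeR). This call held under all 6 alternatives tried and with each library left out.

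Hmgcs1 was measured at 491, 474, 425 and 531 CPM in the young mice, 334, 315 and 315 CPM in the vehicle-treated ones and 434, 320 and 409 CPM in the ABT-737-treated ones. The vehicle libraries were all below the young ones, with a log2 change of -0.58 ± 0.141 (adjusted p = 0.0124, edgeR), while 1 ABT-737 library overlapped the young range. Nsdhl, the dehydrogenase that takes part in removing methyl groups from the sterol ring, had 41.2, 57.3, 46 and 48.9 CPM in young kidneys, 40.4, 18.5 and 22.5 CPM with vehicle and 29.8, 44 and 34.8 CPM with the drug. Its vehicle values fell below the young ones without overlap, with a log2 change of -0.80 ± 0.233 (adjusted p = 0.0333, edgeR). Thrsp moved the other way, from 23.2, 23.2, 17 and 20.8 CPM in young mice to 31.8, 45.8 and 46 CPM with vehicle and 46.8, 27.7 and 36.3 CPM with ABT-737. All old libraries were above all young ones, and the change from young to vehicle was 0.96 ± 0.208 (adjusted p = 0.00603, edgeR). The Hmgcs1 call was lost without vehicle replicate 5, which left 2 genes called, and that of Nsdhl there and also without vehicle replicate 4 or young replicate 2, 3 or 4. The count was 7 without vehicle replicate 3 and likewise without replicate 3 or 4 of the drug-treated mice.

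With the drug, Me1 was the member called in kidney. It stood at 324, 373, 318 and 346 CPM in the young mice, 309, 187 and 194 CPM with vehicle and 362, 517 and 389 CPM with ABT-737. Each ABT-737 library was above each vehicle library, within or above the young range, and the change from vehicle was 0.87 ± 0.194 (adjusted p = 0.0335, edgeR). Thus 1 of 36 genes was called higher, against 0.135% of all genes, and 0 were called lower, against 1.21%. At an unadjusted p under 0.05, 4 members were higher (Me1, the desaturase Scd1, the citrate lyase Acly and the reductase Dhcr7), against 6.93% of all genes, and 0 lower, against 7.88%, and DESeq2 called 1 gene. The Me1 call was lost when any young library, vehicle replicate 4, vehicle replicate 5 or ABT-737 replicate 4 was left out, with 0 genes called then, and also when the fit held the compared groups alone. The 14 fatty acid genes had a median change of 0.27 with 10 positive, beside 0.009 over all genes.

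Other measurements moved with the same groups. The summed level of 10 genes of circadian clock output was 827 to 931 CPM in young kidneys and 279 to 321 CPM in old ones, and the summed markers of white blood cells were 884 to 1380 CPM in young kidneys, 4440 to 7550 CPM with vehicle and 1550 to 2290 CPM with ABT-737. Their part in the changes above was not tested.

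In the liver, 9 genes of all 3 roles were lower in old vehicle-treated mice and 1 was higher. That is 9 of 33 called lower, against 10.8% of all genes tested in liver, and 1 of 33 called higher, against 11.7%. The median change of the 33 genes was -0.55, beside 0.019 over all genes. By role, 10 of 12 fatty acid genes were negative with a median of -0.77, 4 of 5 regulators with a median of -0.52, and 11 of 16 sterol synthesis genes with a median of -0.29.

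**Figure D2:**
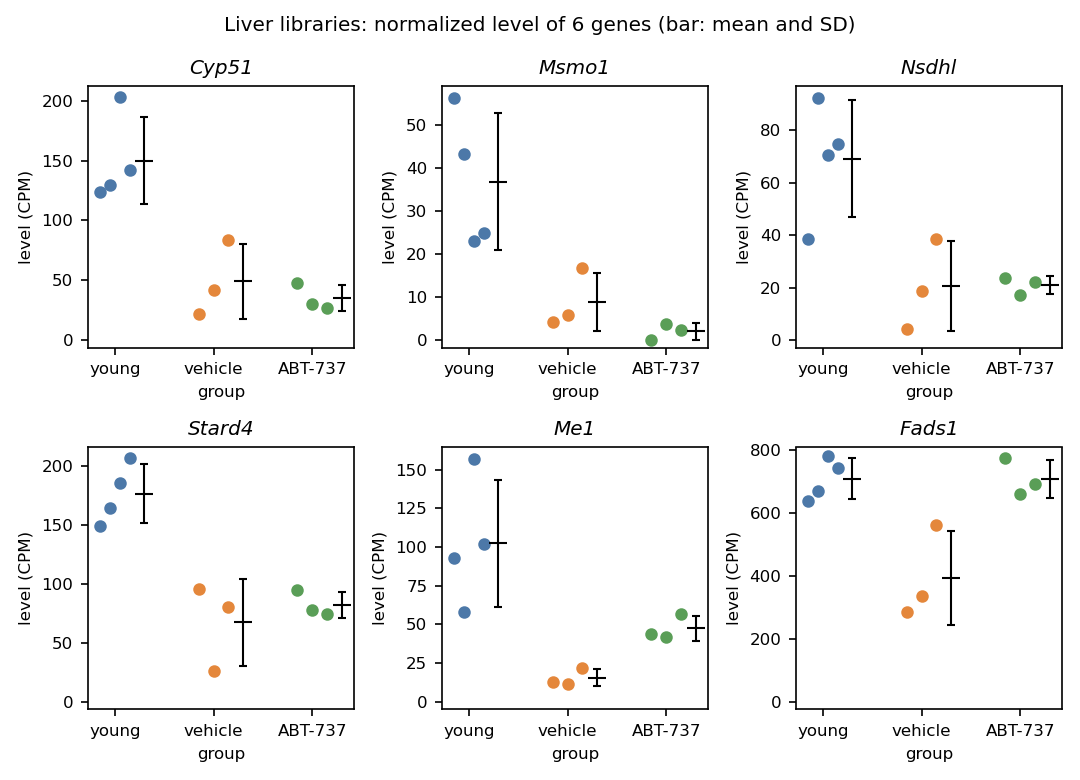
Normalized level in CPM (y axis) of 6 genes in each liver library by group (x axis), with the mean and SD as the black bar beside the points (n = 4 young, 3 vehicle, 3 ABT-737). All 6 had lower vehicle than young libraries; with ABT-737, Fads1 is back at the young level, Me1 lies between, and Cyp51, Msmo1, Nsdhl and Stard4 lie below all young libraries.

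Me1 showed the largest called change of the members in liver. Its level was 92.9, 58.1, 157 and 102 CPM in young livers, 13.1, 11.7 and 21.8 CPM with vehicle and 43.6, 41.7 and 56.9 CPM with ABT-737. No groups overlapped, although the highest ABT-737 library, at 56.9 CPM, lay just below the lowest young one, at 58.1 CPM, and the change from young to vehicle was -2.66 ± 0.375 (adjusted p = 0.000161, edgeR). The 13.1 CPM of vehicle replicate 3 corresponds to 3 counts. Fads1, a desaturase of polyunsaturated fatty acids, had 639, 672, 782 and 744 CPM in the young, 284, 335 and 563 CPM with vehicle and 777, 660 and 693 CPM with the drug. Vehicle libraries lay below young and drug-treated ones alike, with a change from young of -0.84 ± 0.248 (adjusted p = 0.0236, edgeR). Elovl6, which lengthens saturated chains, was also called lower (-1.33, adjusted p = 0.0438, edgeR). The member called higher was Acacb, the carboxylase whose product holds back fatty acid import into mitochondria. It rose from 36.8, 25.3, 33.8 and 19.2 CPM in young livers to 82.9, 30.4 and 98.9 CPM with vehicle, so 1 vehicle library lay within the young range (log2 change 1.24 ± 0.408, adjusted p = 0.0384, edgeR), and DESeq2 did not call it.

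Sterol synthesis genes called lower with age in liver numbered 4. Cyp51 was at 124, 130, 203 and 142 CPM in the young, 21.8, 42.1 and 83.5 CPM with vehicle and 47.6, 30.3 and 27.2 CPM with ABT-737. No old library reached the young range, and the change from young to vehicle was -1.47 ± 0.323 (adjusted p = 0.00422, edgeR). Msmo1, the oxidase that starts the removal of methyl groups from the ring, stood at 56.2, 43.2, 23 and 24.9 CPM in young livers and 4.36, 5.85 and 16.7 CPM with vehicle. With ABT-737 it had 0, 3.79 and 2.48 CPM, at most 2 counts in a library. Young and vehicle libraries did not overlap, with a change of -1.84 ± 0.469 (adjusted p = 0.011, edgeR). Nsdhl, whose product acts with that of Msmo1, went from 38.7, 92.4, 70.7 and 74.8 CPM in the young to 4.36, 18.7 and 38.5 CPM with vehicle, which nearly met at 38.5 and 38.7 CPM, and to 23.8, 17.1 and 22.3 CPM with ABT-737. The change from young to vehicle was -1.52 ± 0.385 (adjusted p = 0.0106, edgeR). In vehicle replicate 3, where 3 counts correspond to 13.09 CPM, Msmo1 and Nsdhl were both below 3 counts, at 4.36 CPM. Sc5d was also called lower (-0.82, adjusted p = 0.0252, edgeR). The other sterol synthesis genes tested did not pass. Hmgcs1, Mvk, Pmvk and Mvd had changes of -0.28, 0.08, 0.13 and 0.21. Fdps, Fdft1, Sqle and Lss had changes of -0.30, -0.16, -0.83 and 0.21. Among later enzymes, Tm7sf2, Hsd17b7, Ebp and Dhcr7 had changes of -0.55, -0.92, -0.17 and 0.17. Whether earlier and later enzymes differed was not tested.

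Among regulators and transport genes, Stard4, which encodes a soluble carrier of sterols between membranes, had 149, 165, 186 and 207 CPM in young livers, 96, 25.8 and 80.9 CPM with vehicle and 95.1, 77.8 and 74.3 CPM with ABT-737. Every old library was below every young one, with a change from young to vehicle of -1.49 ± 0.331 (adjusted p = 0.00452, edgeR). Mlxipl, the sugar-responsive factor, was called lower (-0.78, adjusted p = 0.0463, edgeR). Srebf1 had a change of -0.06 and did not pass, and Insig2 had one of 0.96, also without passing.

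With age in liver, 5 genes were called when young replicate 3 or vehicle replicate 4 was left out, and 13 at most. Me1, Cyp51 and Stard4 were called with each library left out in turn. Without vehicle replicate 4, the calls of Msmo1, Nsdhl, Fads1, Sc5d, Elovl6 and Mlxipl were lost, and without young replicate 3 those of Fads1, Sc5d, Elovl6, Mlxipl and Acacb. Elovl6 was also lost without young replicate 2 or 4, and Mlxipl and Acacb also without any other young library or vehicle replicate 5, and Mlxipl without ABT-737 replicate 4. White blood cell markers summed to 230 to 387 CPM in young livers, 1800 to 4280 CPM with vehicle and 343 to 688 CPM with ABT-737, and clock output genes to 420 to 587 CPM in young and 128 to 201 CPM in old livers. Hepatocyte markers summed to 74000 to 84200 CPM with vehicle and were at least 81900 CPM in the young and 94800 CPM with ABT-737. The adipocyte list summed to 1440 to 2380 CPM in the young, 234 to 445 CPM with vehicle and 1370 to 1850 CPM with ABT-737, mostly from Car3 (1900 ± 395 CPM in the young, SD, n = 4), while Adipoq, Plin1 and Lep were at 0 in all young livers. The sebaceous list summed to 2850 to 4620, 1470 to 2410 and 3310 to 4220 CPM in the same order, mostly from Mgst1, while Awat1, Krt79, Far2 and Dgat2l6 were at 0 in all young and vehicle livers. Their part in the changes was not tested.

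With ABT-737, no member passed in liver. Called were 0 of 33 genes higher, against 1% of all genes, and 0 lower, against 2.85%. At an unadjusted p under 0.05, 2 genes were higher, against 6.75% of all genes, and 1 was lower, against 9.35%, and DESeq2 called 2. The lower one was Msmo1, at the floor with ABT-737. Taking 3 counts per library as its floor, it was at least 1.08-fold lower than with vehicle. All 12 fatty acid genes had positive values, with a median of 0.55, and 12 of 16 sterol synthesis genes had negative ones, with a median of -0.2 (-0.15 with Msmo1 at its bound of 3 counts), beside -0.032 over all genes. Summed over their genes, both roles overlapped between the groups, with 3650, 3920 and 7880 CPM for fatty acid genes with ABT-737 against 2950, 2260 and 4610 CPM with vehicle, and 2180, 1590 and 2250 CPM against 2010, 1200 and 2640 CPM for sterol genes. Of the 33, Me1 had a change of 1.55 ± 0.435 (adjusted p = 0.0591, edgeR) and Fads1 one of 0.84 ± 0.263 (adjusted p = 0.096, edgeR), both with every drug-treated library above every vehicle one. Leaving out young replicate 2 or young replicate 3 gave 1 called gene, and leaving out vehicle replicate 3 or vehicle replicate 5 gave 3.

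The vehicle livers differed widely among themselves in the fatty acid genes. Thrsp was at 1680, 33.9 and 1220 CPM in vehicle replicates 3, 4 and 5, beside 1440, 1360, 1440 and 1530 CPM in young livers and 801, 550 and 3060 CPM with ABT-737. Fasn, the fatty acid synthase, was at 454, 73.7 and 583 CPM with vehicle, 486, 292, 510 and 489 CPM in the young and 273, 144 and 1170 CPM with the drug, so vehicle replicate 4 was far below the other vehicle libraries for both genes. Scd1 was lowest in vehicle replicate 3 instead, with 240, 1510 and 1630 CPM in the vehicle livers against 2010, 957, 2340 and 2290 CPM in the young.

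Set against young livers, ABT-737-treated livers had 5 of 33 genes called lower, against 5.27% of all genes, and 1 called higher, against 3.13%. The 4 sterol genes among them were Cyp51 (-2.15 ± 0.367, adjusted p = 0.00264, edgeR), Nsdhl (-1.76, adjusted p = 0.0209), Msmo1 and Sqle, the squalene epoxidase that controls the entry into sterol synthesis proper. Msmo1 was at least 4.42-fold lower than in young livers, taking 3 counts per library as its floor. Sqle had 48.4, 65.6, 61.4 and 32.6 CPM in young livers, 0, 18.7 and 53.9 CPM with vehicle and 7.93, 9.48 and 14.9 CPM with ABT-737, so the drug-treated libraries were low together and the vehicle ones ran from 0 to 53.9 CPM. Its change from young was -2.24 (adjusted p = 0.0301, edgeR). Stard4 was also lower (-1.12, adjusted p = 0.0452, edgeR), and Acacb was higher (1.79, adjusted p = 0.0125, edgeR), at 103, 58.8 and 144 CPM. Without ABT-737 replicate 5, 2 genes were called, and 3 without replicate 3 or replicate 4 of that group. Cyp51 and Msmo1 were called with each library left out, Acacb with each but ABT-737 replicate 5. Nsdhl, Sqle and Stard4 were lost without any 1 of the drug-treated libraries and without young replicate 2, Sqle also without young replicate 3, and Stard4 without any young library. In kidney, Cyp51 was the member called between ABT-737-treated and young mice (-0.80, adjusted p = 0.012, edgeR), that is 1 of 36 genes lower, against 0.737% of all genes, and 0 higher, against 1.38%. There, leaving out drug-treated replicate 3 gave 0 calls and replicate 4 gave 3, leaving out vehicle replicate 3 gave 2, and DESeq2 called 2.

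In the lung, 1 gene was called with age. Hmgcs1 had 71.6, 73.7, 67.3 and 66.5 CPM in young lungs, 39.6, 40.3 and 47.1 CPM with vehicle and 53.5, 41.1 and 54.1 CPM with ABT-737. No old library reached the young range, and the change from young to vehicle was -0.72 ± 0.223 (adjusted p = 0.0478, edgeR). This made 1 of 34 genes lower, against 4.73% of all genes, and 0 higher, against 8.15%, no more often than other genes, and the median change of the 34 genes, 0.04, was close to the 0.039 of all genes. At an unadjusted p under 0.05, 4 genes were lower, against 13.2% of all genes, and 0 higher, against 16.6%, and DESeq2 called 2. The Hmgcs1 call was lost when any 1 young library, any 1 vehicle library or ABT-737 replicate 3 was left out. Without vehicle replicate 4 or ABT-737 replicate 5, 2 genes were called. Clock output genes summed to 1330 to 1590 CPM in young and 118 to 354 CPM in old lungs, and white blood cell markers to 7810 to 10300 CPM in the young, 14800 to 21800 CPM with vehicle and 9920 to 19900 CPM with ABT-737. Their part in this change was not tested.

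With ABT-737, no member passed in lung, and 1 library stood far above the rest. Called were 0 of 34 genes in each direction, against 0% and 0% of all genes, and 0 also with DESeq2, with the replicate block and under every other alternative. At an unadjusted p under 0.05, 7 were higher, against 9.52% of all genes, and 1 was lower, against 6.54%. All 12 fatty acid genes had positive values, with a median of 0.97, beside 0.041 over all genes, while 10 of 16 sterol genes were negative, with a median of -0.07. Thrsp had 20.6, 16.7, 19.5 and 13.5 CPM in young lungs, 60.4, 30.9 and 8.23 CPM with vehicle and 32.2, 640 and 29.5 CPM with ABT-737. The 640 CPM belonged to ABT-737 replicate 4, and the other 2 drug-treated lungs lay within the vehicle range. The log2 change was 2.83 ± 0.963 (adjusted p = 0.185, edgeR), and it was -0.08 without that library. Acacb had 6.38, 5.56, 4.34 and 5.2 CPM in young lungs, 10.1, 8.58 and 5.98 CPM with vehicle and 10.9, 30.6 and 15.7 CPM with ABT-737, again highest in replicate 4 but with all drug-treated libraries above all vehicle ones (1.19 ± 0.418, adjusted p = 0.193, edgeR). Fasn was at 325, 1280 and 298 CPM with ABT-737 and 305, 272 and 290 CPM with vehicle.

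**Figure D3:**
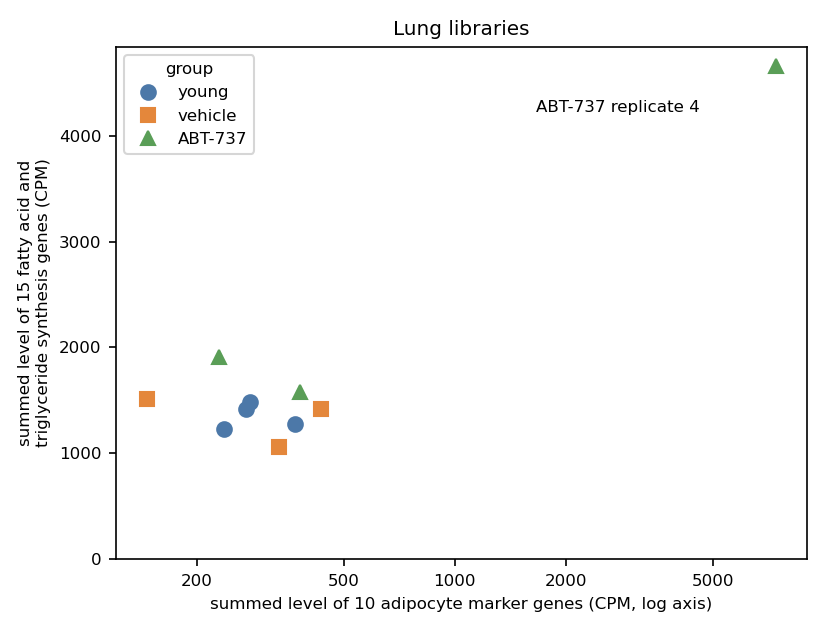
Summed level in CPM of the fatty acid and triglyceride synthesis genes (y axis) against the summed level in CPM of 10 adipocyte markers (x axis, log scale) in each lung library, with circles for young, squares for vehicle and triangles for ABT-737. ABT-737 replicate 4 lies at 7400 CPM of adipocyte markers and 4660 CPM of fatty acid genes, and the other 9 libraries lie at 147 to 435 CPM and 1060 to 1910 CPM.

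The same lung library held the most adipocyte RNA. The 10 adipocyte markers summed to 7400 CPM in ABT-737 replicate 4, 147 to 435 CPM in the other old lungs and 237 to 368 CPM in the young ones. The fatty acid genes summed to 4660 CPM there and to 1060 to 1910 CPM in the others. All 8 adipocyte markers tested had positive values for ABT-737 against vehicle, and 0 passed. What this library adds to the lung values of the fatty acid genes, beyond the values without it given here, was not tested.

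Between ABT-737-treated and young lungs, 4 fatty acid genes were called higher, 4 of 34 against 2.15% of all genes, and 0 lower, against 0.402%. They were Acacb (1.77, adjusted p = 0.0404), Elovl6 (3.23, adjusted p = 0.0404), Scd1 (1.93, adjusted p = 0.0474) and Thrsp (3.71, adjusted p = 0.0475), all by edgeR. Elovl6 was at 2.94, 3.48, 0.543 and 1.04 CPM in young lungs, 6.04, 6.43 and 4.86 CPM with vehicle and 7.08, 46.4 and 7.16 CPM with ABT-737, so all old libraries were above all young ones, with replicate 4 on top. The young lungs had at most 6 counts of Elovl6 in a library. Leaving out ABT-737 replicate 4 or vehicle replicate 3 left 1 gene called, leaving out ABT-737 replicate 5 left 2, and leaving out any 1 of the young libraries left 0. Without ABT-737 replicate 4 the log2 changes were 0.79 for Thrsp, 1.82 for Elovl6, 1.34 for Scd1 and 1.29 for Acacb, and Acacb was the gene still called.

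In the skin, 7 members of all 3 roles were called higher in old vehicle-treated mice and 1 was called lower. That is 7 of 37 higher, against 5.84% of all genes, and 1 of 37 lower, against 5.35%. The median change was 0.66, beside 0.054 over all genes, and 15 of 16 sterol synthesis genes and 11 of 15 fatty acid genes had positive values. Skin was deposited in a table of its own, so no test set skin against the other tissues.

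**Figure D4:**
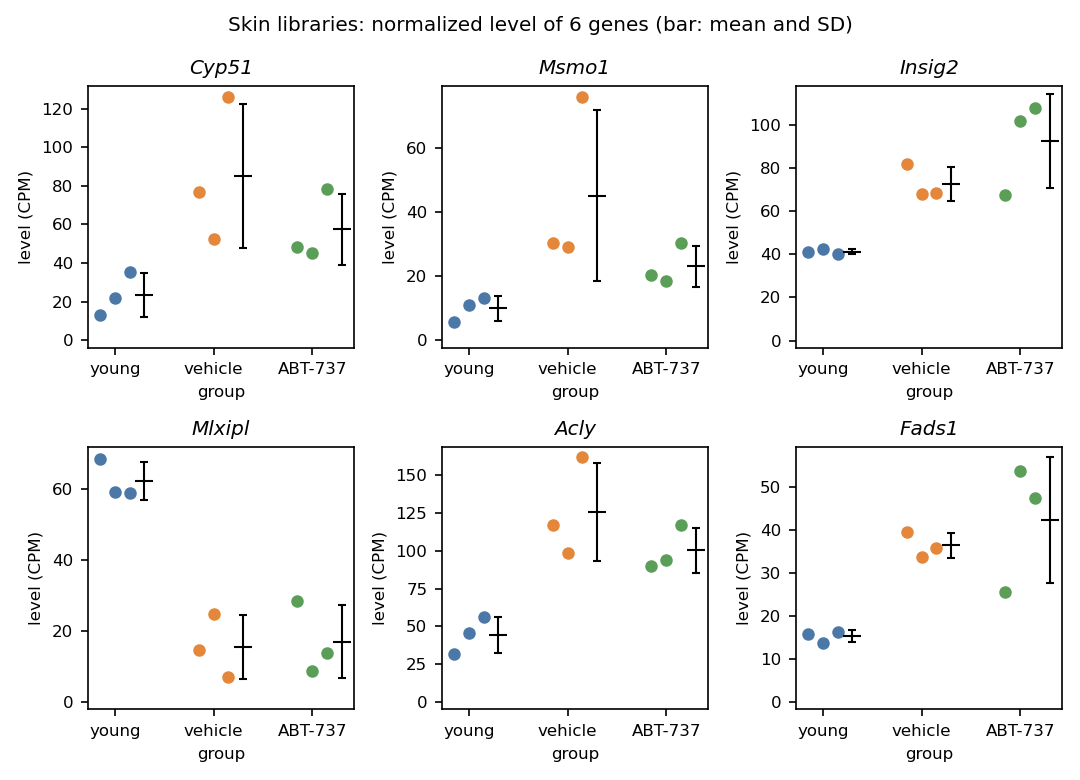
Normalized level in CPM (y axis) of 6 genes in each skin library by group (x axis), with the mean and SD as the black bar beside the points (n = 3 in each group). Vehicle libraries lie above all young libraries for Cyp51, Msmo1, Insig2, Acly and Fads1 and below them for Mlxipl, and for each gene the ABT-737 libraries lie on the same side of the young ones.

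Msmo1 had the largest called rise among sterol genes in skin. It was at 5.79, 10.9 and 13.2 CPM in young skin, 30.3, 29.2 and 75.9 CPM with vehicle and 20.5, 18.4 and 30.5 CPM with ABT-737, and the old libraries were all above the young ones (vehicle against young 2.15 ± 0.456, adjusted p = 0.0231, edgeR). Cyp51 was at 13, 21.9 and 35.5 CPM in the young, 76.9, 52.7 and 126 CPM with vehicle and 48.5, 45.4 and 78.3 CPM with the drug, again with every old library above the young (vehicle against young 1.84 ± 0.427, adjusted p = 0.0291, edgeR). Lss, the cyclase that forms lanosterol, was also called (1.18, adjusted p = 0.0473, edgeR).

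Acly, the citrate lyase that supplies cytosolic acetyl-CoA to both branches, had 31.8, 45.5 and 55.9 CPM in young skin, 117, 98.9 and 162 CPM with vehicle and 89.8, 94 and 117 CPM with ABT-737. Young and old libraries did not overlap, and the change from young to vehicle was 1.5 ± 0.264 (adjusted p = 0.0147, edgeR). Fads1 stood at 15.9, 13.8 and 16.4 CPM in the young, 39.5, 33.8 and 35.9 CPM with vehicle and 25.7, 53.7 and 47.5 CPM with the drug, also without overlap (vehicle against young 1.24 ± 0.282, adjusted p = 0.028, edgeR). Elovl6 was called as well (1.82, adjusted p = 0.0418, edgeR), at 308, 218 and 515 CPM with vehicle against 49.2, 120 and 125 CPM in the young.

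Of the regulators in skin, Insig2 was at 41.2, 42.6 and 40 CPM in the young, 81.7, 68 and 68.4 CPM with vehicle and 67.5, 102 and 108 CPM with ABT-737, with all old libraries higher (0.82 ± 0.21 from young to vehicle, adjusted p = 0.0382, edgeR). Mlxipl was lower, at 68.7, 59.3 and 59.1 CPM in the young, 14.5, 24.9 and 6.9 CPM with vehicle and 28.5, 8.62 and 13.7 CPM with ABT-737, with no overlap between young and old (-2.02 ± 0.499, adjusted p = 0.0346, edgeR). Srebf1 and Srebf2 had changes of 0.36 and 0.41 and did not pass.

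The count in skin changed when single libraries were left out, and the shares of all genes called in those fits are not given here. It was 0 without young replicate 1 or 2 and 1 without vehicle replicate 5, when Acly alone of the 8 was kept. It was 3 without young replicate 3 or vehicle replicate 3 and 4 without ABT-737 replicate 5, and it reached 12 with another library left out. DESeq2 called 14. Summed sebaceous gland markers moved with the same groups, at 329 to 578 CPM in young skin, 1010 to 1760 CPM with vehicle and 631 to 1090 CPM with ABT-737, and 4 of the 7 tested were called higher with age. Hair follicle matrix markers ran from 10.9 to 218 CPM in young skin, from 44.8 to 11700 CPM with vehicle and from 47 to 27500 CPM with ABT-737, skeletal muscle markers from 60700 to 86200 CPM in the young, from 9320 to 41400 CPM with vehicle and from 15000 to 47300 CPM with ABT-737, and clock output genes summed to 1250 to 1310 CPM in the young and 146 to 335 CPM in the old. White blood cell markers summed to 403 to 1370 CPM in the young, 3750 to 4650 CPM with vehicle and 996 to 2440 CPM with ABT-737. Adipocyte markers summed to 4940 to 6520 CPM in the young, 1260 to 5070 CPM with vehicle and 2210 to 8580 CPM with ABT-737. Their part in the changes of the synthesis genes was not tested.

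With ABT-737, no member passed in skin. Called were 0 of 37 genes in each direction, against 0% and 0% of all genes, and 0 also with DESeq2 and every other alternative. At an unadjusted p under 0.05, 3 were lower, against 4.57% of all genes, and 0 were higher, against 3.4%. The 16 sterol genes had a median of -0.3 with 13 negative, beside 0.043 over all genes. Elovl6 had 175, 76.4 and 203 CPM with ABT-737 against 308, 218 and 515 CPM with vehicle, which did not overlap (-1.19 ± 0.473, adjusted p = 0.584, edgeR). Acacb was at 148, 93.2 and 126 CPM in the young, 126, 109 and 95.7 CPM with vehicle and 88.7, 25.5 and 55.5 CPM with ABT-737, also without overlap between the old groups (-0.95 ± 0.383, adjusted p = 0.59, edgeR). The 7 sebaceous markers tested all had negative values for the drug against vehicle, with none called.

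Between ABT-737-treated and young skin, 3 of 37 genes were called higher, against 2% of all genes, and 0 lower, against 3.17%. These were Insig2 (1.16, adjusted p = 0.0258), Acly (1.17, adjusted p = 0.0403) and Fads1 (1.45, adjusted p = 0.03), all by edgeR. None was called when a young library or drug-treated replicate 4 or 5 was left out, whereas 5 were called when vehicle replicate 4 was left out and 11 when drug-treated replicate 3 was. Acly was also lost without vehicle replicate 3. DESeq2 called 10.

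Whether an effect differed between tissues was tested in a joint fit of the 30 kidney, liver and lung libraries over 13107 genes, 36 of them members. Libraries of different tissues with the same group and number may come from the same mouse, which the labels do not say. The joint fit took all 30 as independent. The age effect, vehicle minus young, was lower in liver than in lung for 3 genes, 3 of 36 against 5.3% of all genes, and higher for 0, against 6.13%. For Me1 the log2 change was -2.65 in liver and 0.19 in lung, a difference of -2.84 ± 0.557 (adjusted p = 0.00123, edgeR), which held under every alternative in which the gene was tested and with each of the 30 libraries left out. For Nsdhl it was -1.51 in liver and 0.39 in lung, a difference of -1.89 ± 0.52 (adjusted p = 0.0156, edgeR). For Elovl6 it was -1.31 and 1.51, a difference of -2.82 ± 0.857 (adjusted p = 0.0283, edgeR). In lung, Elovl6 had at most 6 counts in a young library and at most 15 in a vehicle one, so its lung change is imprecise. Without liver vehicle replicate 4, 1 gene was called, and 7 and 6 were called without liver vehicle replicate 5 and lung vehicle replicate 4. The Nsdhl call was also lost without lung vehicle replicate 5, and the Elovl6 call without lung young replicate 3 or 4.

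**Figure D5:**
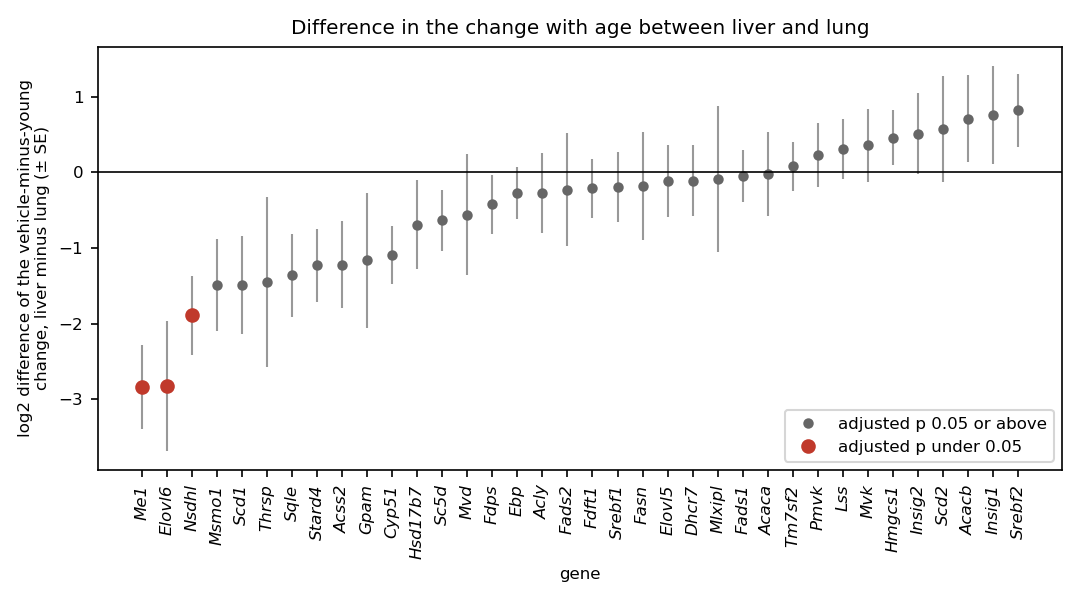
Difference between the log2 change with age in liver and in lung (y axis, log2, bars are standard errors of the fit) for the 36 genes tested (x axis), in rising order. The 3 genes in red, Me1, Elovl6 and Nsdhl, passed at adjusted p under 0.05 and lie at -2.84, -2.82 and -1.89.

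Between liver and kidney, the age effect differed for 0 of 36 genes in each direction, against 0.481% of all genes higher and 0.305% lower in liver. At an unadjusted p under 0.05, 1 gene was higher, against 6.39%, and 5 were lower, against 5.01%, and DESeq2 called 1. Me1 had a difference of -2.07 (adjusted p = 0.0554, edgeR). Leaving out liver vehicle replicate 5 gave 2 called genes, and leaving out liver young replicate 2 or any 1 of the 6 old lung libraries gave 1.

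The drug effect differed between liver and kidney for 0 of 36 genes in each direction, against 0.0153% and 0.0687% of all genes, with 1 higher, against 1.71%, and 5 lower, against 5.65%, at an unadjusted p under 0.05. Between liver and lung it also differed for 0, against 0.0229% higher and 0.267% lower, with 0 higher, against 2.86%, and 2 lower, against 9.45%, at an unadjusted p under 0.05. DESeq2 called 0 in both, and 1 gene was called between liver and lung without liver vehicle replicate 3.

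Beyond the 38 genes, 50 genes of neighbouring steps were counted, from SREBP processing and sterol export to bile acid and triglyceride synthesis. In liver, 33 of the 50 were tested, and with age 3 were called higher, against the 11.7% of all genes given above, and 9 lower, against 10.8%. Those lower included 2 hydroxylases of bile acid synthesis, Cyp7a1, the rate-limiting enzyme (-1.73, adjusted p = 0.022, edgeR), and Cyp7b1 (-3.38, adjusted p = 0.000186, edgeR), along with the phosphatidate phosphatase Lpin1 (-2.21, adjusted p = 0.000397, edgeR). With ABT-737, Lpin1 was higher than with vehicle (1.43, adjusted p = 0.035, edgeR), as was Cyp8b1, which directs synthesis to cholic acid (1.34, adjusted p = 0.0252, edgeR), while Npc2, a lysosomal sterol carrier, was lower (-0.85).

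In kidney, 5 of 36 were lower with age, against 5.5% of all genes, and 0 higher, against 7.75%, among them Cyp7b1 (-1.57, adjusted p = 0.00658, edgeR), and Gpr155, a lysosomal cholesterol sensor, was the gene called higher with ABT-737 (1.14, adjusted p = 0.0153, edgeR). In lung, 4 of 36 were lower with age, against 4.73%, and 0 higher, against 8.15%, and 0 were called with the drug. In skin, 7 of 38 were higher with age, against 5.84%, and 0 lower, against 5.35%, including Acat2, the thiolase that opens the mevalonate pathway (1.89), and the chain elongase Elovl7 (2.33), and 0 were called with ABT-737.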

How the data were processed

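RNA of kidney, liver, lung and skin was read at the 3′ ends of transcripts by bulk MARS-seq, with 10 libraries a tissue and 9 in skin. Per gene, the authors deposited raw whole-number counts, in 2 tables. The submitters' processing notes list bcl2fastq, HISAT 0.1.5, HOMER and mm10. Whether molecule barcodes were collapsed is not given in the sources used here, so floors cover counting error only.

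Analyses used R 4.3.3 and edgeR 4.0.16 (filterByExpr, TMM, quasi-likelihood test, 3 groups a tissue). The joint fit held 9 groups. Benjamini-Hochberg adjusted p-values run over all genes tested. A group with at most 3 counts in every library was treated as at the floor. The tables were fitted apart. Some treatment labels give the drug's name with another number, and those libraries were grouped as ABT-737 by their titles. Replicate numbers may mark separate mice, but the labels do not say what a number marks, so p-values measure the spread between these libraries.

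The 38 genes, the lists and the tests were chosen with earlier results of these data known. Values in every library are given for called members, at most the 6 with the smallest p per tissue and comparison of ABT-737 against vehicle and vehicle against young, or the 2 with the smallest unadjusted p where none was called. The values of Thrsp, Fasn, Scd1, Sqle and Acacb in liver and of Fasn and Elovl6 in lung were added after they were seen. Drug-treated and vehicle-treated libraries of the same number deviated together in lung (r from 0.176 to 0.427), but not in all pairs of the other tissues. Pairs of different numbers reached r = 0.303 in lung and 0.734 in skin, so these values do not settle whether numbers mark pairs. The alternatives were DESeq2 1.42.0, edgeR with the size factors of DESeq2, all genes with 1 count or more, genes with 10 counts or more in each library, a fit of the compared groups alone, a replicate block, and leaving out each library in turn. The fits of ABT-737 against vehicle in each tissue, and of the drug effect in liver against kidney, were tested on simulated counts with known changes. Before those changes, every group had the same mean for a gene. The simulation did not cover the age comparisons or tissues that differ in level.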

Additional observations from a re-analysis of the deposited data

Results flagged for a closer look

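In 3 of 36 genes the change with age differed between liver and lung by the test of the difference itself. All 3 were lower in liver, against 5.3% of all genes, and 0 were higher, against 6.13%. The members were thus called about as often as other genes. The difference, liver minus lung, was -1.89 for Nsdhl, -2.84 for Me1 and -2.82 for Elovl6 on the log2 scale. Elovl6 had at most 6 counts in a young lung library. No explanation was tested. In each of 14 groups of 4 young libraries that were looked at, for the members described library by library, the sample farthest from the others was within Dixon's limit, so 0 groups stood out, where chance gives about 1 in 20.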

How the results depend on the processing

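The counts of called members moved with the settings. The shares of all genes called under each setting are not given here. A count that moved can therefore not be told apart from a setting that calls more or fewer genes in general. Without a filter beyond 1 count, kidney had 9 called with age and 2 between ABT-737 and young, liver 2 with the drug and 16 with age, lung 0 with age, skin 13 with age and 9 between ABT-737 and young, and the age effect differed between liver and kidney for 1. With at least 10 counts in every library, liver had 5 with age and 2 between ABT-737 and young, lung 0 in both of these comparisons, skin 5 between ABT-737 and young, and liver and lung differed with age for 1. With only the compared groups, kidney had 0 with the drug and 8 with age, liver 10 between ABT-737 and young, lung 3 with age, skin 13 with age and 5 between ABT-737 and young, and liver and kidney differed with age for 1. With DESeq2, the counts were 2 for kidney ABT-737 against young, 2 for liver with the drug, 2 for lung with age, 14 and 10 for skin with age and for ABT-737 against young, and 1 and 5 for the age effect in liver against kidney and lung. DESeq2's size factors in edgeR gave 1 for liver against kidney.

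With the replicate block, kidney had 0 with the drug, 1 with age and 0 between ABT-737 and young, liver 6 with age and 1 between ABT-737 and young, lung 0 and 0, and liver and kidney differed with age for 2. For skin against young no block could be fitted, since the groups share 1 number. Against young, same-numbered lung libraries were only 2 pairs, so their numbers were not taken to pair them. The block changed no other count by over 1.5 times.

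With each library left out in turn, the counts ran in kidney from 0 to 1 with the drug, from 2 to 7 with age and from 0 to 3 between ABT-737 and young, in liver from 0 to 3, from 5 to 13 and from 2 to 8, in lung from 0 to 0, from 0 to 2 and from 0 to 4, and in skin from 0 to 0, from 0 to 12 and from 0 to 11. They ran from 0 to 2 and from 1 to 7 for the age effect in liver against kidney and lung, and from 0 to 0 and from 0 to 1 for the drug effect. Of 47 results of single members, 8 kept their direction and side of the threshold throughout. These 8 include Acacb in lung, Acacb in skin and Elovl6 in skin, all with the drug, which were never called. The rest of the 8 were calls of Cyp51 and Me1. Another 1 of the 47 turned, Thrsp in lung with the drug, which ran from -0.08, without lung ABT-737 replicate 4, to 3.57. The causes were not tested. Liver depth limits what could be seen of lowly counted members.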
